A study of Mus musculus with 10 samples.

Results

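The 44 genes described here add, remove or read acetyl groups on histones, or hold the enzymes that do so, and they were taken by name from an expression table of 55385 gene identifiers. They comprised 10 acetyltransferases, 11 zinc-dependent deacetylases, 7 sirtuins, 8 bromodomain readers and 8 coactivators or corepressor scaffolds. All 44 passed the filter on low counts, as did 14200 genes in all. Counts of the 44 ranged from 22 to 3835 reads in a library.

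The study measured RNA of mouse liver hepatocytes in 10 samples, of which the 4 libraries of its EP300 experiment are used here. The titles of these 4 begin with HCC, commonly short for hepatocellular carcinoma, whereas those of the diet samples begin with Liver. The 2 libraries labelled EP300 WT carry the genotype label EP300f/f, a floxed Ep300 allele, and came from mice given AAV-TBG-GFP, a viral control. The 2 libraries labelled EP300 KO carry the genotype label EP300-/- and came from EP300f/f mice given AAV-TBG-Cre, in which the TBG promoter directs the recombinase to hepatocytes. Both groups share the C57BL/6J 129SV background, a diet with the liver toxicant DDC, and the pT3-cMet plasmid, delivered by hydrodynamic tail vein injection (HTVi) to express the MET growth factor receptor. Both were treated for 5 months, after which the liver was perfused and its cells were sorted. The labels give no age, mention pooling before sequencing and leave it unsaid which animals a library holds. Each p-value below accordingly reflects how far libraries of a group differ, a spread that may be technical.

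Acetyltransferases place acetyl groups on lysines of histone tails, which loosens chromatin, and bromodomain proteins bind the acetylated lysines. Deacetylases remove the groups again: the class I, II and IV enzymes depend on zinc, whereas sirtuins consume NAD. EP300 and its paralog CBP, encoded by Crebbp, are coactivators with overlapping substrates, and in the liver they serve transcription factors that respond to fasting, among others.

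A total of 17709799 to 18831671 reads were counted to genes in each library. At an adjusted p below 0.05, 34.2% of the 14200 genes tested differed between the groups, 16.7% being higher and 17.5% lower in EP300 KO. Hepatocyte RNA was abundant in all 4 libraries, with Alb, which encodes albumin, at 71371 to 78346 CPM (counts relative to the TMM-adjusted library size). Of 10 hepatocyte markers, 6 rose and 2 fell. Markers of other cells were also detected: the summed level of 8 endothelial markers was 279 and 246 CPM in EP300 KO and 333 and 326 CPM in EP300 WT, and that of 10 proliferation markers was 46.5 and 53.2 against 86.9 and 88.5 CPM. Xist, which is transcribed from the inactive X chromosome of females, had 2310 and 1411 reads in EP300 KO and 3 and 2 reads in EP300 WT. The Y-linked genes Ddx3y, Uty, Kdm5d and Eif2s3y were present in all 4 libraries. Of these 4, none was called. Xist and the group label changed together, so what goes with Xist and what goes with the label cannot be told apart here. The set holds 2 X-linked genes, Hdac6 and Hdac8, and neither was called.

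Ep300 itself, the gene named by the label, was no lower in EP300 KO. It had 1274 and 1258 reads in the EP300 KO libraries and 1184 and 1114 reads in the EP300 WT libraries, or 73.7 and 72.3 CPM against 62.3 and 57.9 CPM. Both EP300 KO libraries lay above both EP300 WT libraries. The log2 fold change was 0.28 (SE 0.07, 95% interval 0.13 to 0.43), and edgeR's quasi-likelihood test gave a Benjamini-Hochberg adjusted p of 0.00498. The interval excludes a fall. The call was lost without EP300 WT replicate 2, where the log2 fold change was 0.24 and the adjusted p 0.128. Ep300 (ENSMUSG00000055024) spans chr15:81585351-81652077 on the plus strand of mm10. The table counts reads over the whole gene, so it does not show whether the exons between the loxP sites were transcribed, and the labels do not name those exons. The whole-gene level thus does not tell whether the gene was disrupted. Every direction below is that of the libraries labelled EP300 KO against those labelled EP300 WT. In these bulk libraries, fewer cells of a type and less RNA per cell cannot be told apart.

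Its paralog Crebbp did not pass the test. Crebbp (ENSMUSG00000022521, chr16:4081328-4213997, minus strand) had 764 and 629 reads in EP300 KO and 783 and 772 reads in EP300 WT, or 44.2 and 36.2 CPM against 41.2 and 40.1 CPM. The EP300 KO libraries lay on either side of the EP300 WT libraries, so the groups overlapped. The log2 fold change was -0.02 (SE 0.09, 95% interval -0.21 to 0.18), with an adjusted p of 0.904 in edgeR's quasi-likelihood test. Its sign turned without EP300 KO replicate 2, to 0.13 with an adjusted p of 0.288, and without EP300 WT replicate 1, to 0.01 with an adjusted p of 0.978. The upper bound of the interval corresponds to a rise of 13.1%. The count ratio of Ep300 to Crebbp was 1.67 and 2.0 in EP300 KO and 1.51 and 1.44 in EP300 WT. The log2 difference of that ratio was 0.31, with a two-sided exact permutation p of 0.333, the smallest that 2 against 2 libraries allow. Per kilobase of exon, Ep300 made up 61.3% and 65.5% of the pair's summed level in EP300 KO and 58.9% and 57.8% in EP300 WT.

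**Figure D1:**
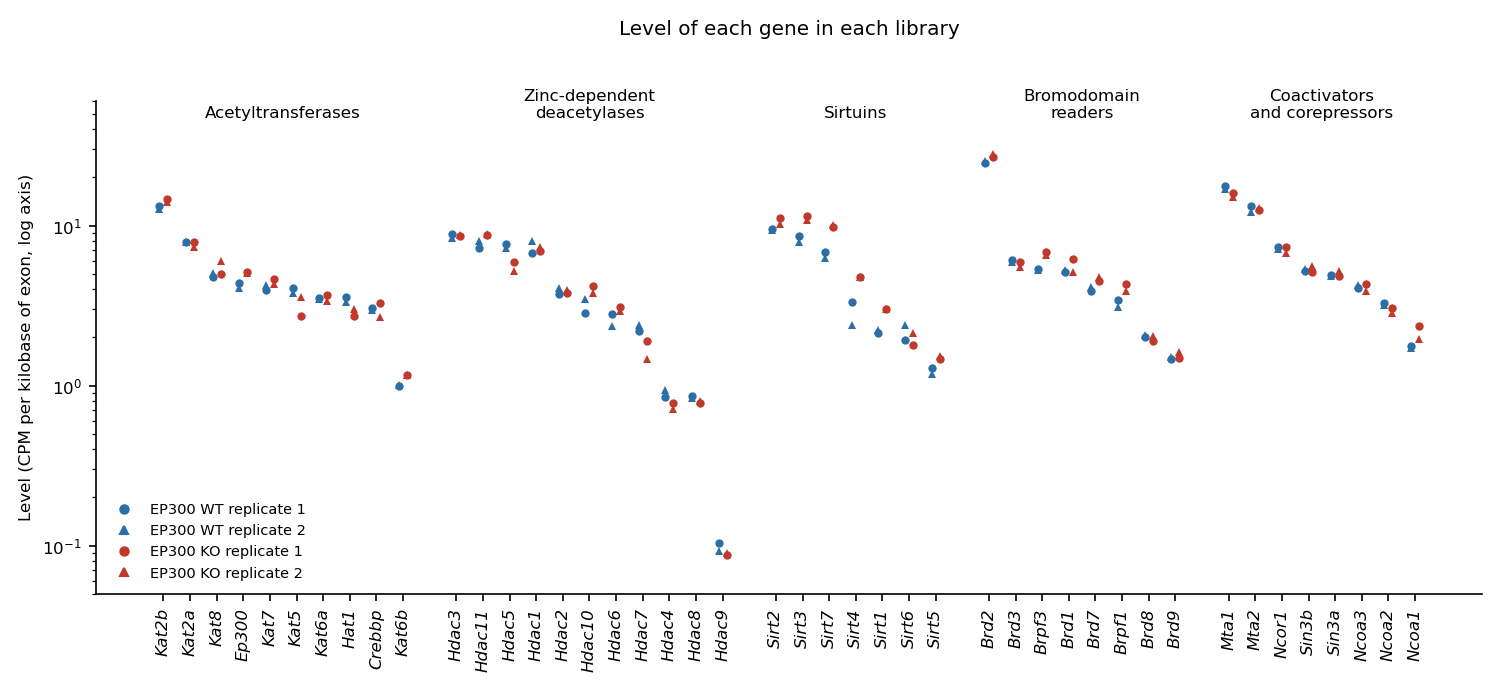
Level of each of the 44 genes in each library, in CPM per kilobase of exon on a log axis, with genes ordered by class and 1 point for each library. Brd2 is the most and Hdac9 the least abundant. Every sirtuin but Sirt6 shows both EP300 KO points above both EP300 WT points, as do 18 of the 44 genes in all. The groups did not overlap, in either direction, for 66.4% of all genes tested.

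None of the other 9 acetyltransferases, Crebbp included, was called. Their summed level per kilobase of exon was 45.7 and 45.6 in EP300 KO and 45.03 and 44.5 in EP300 WT, and their median log2 fold change was 0.00. GCN5 and PCAF, encoded by Kat2a and Kat2b, are the catalytic subunits of the SAGA and ATAC coactivator complexes. Kat2a stood at 27.5 and 25.8 CPM in EP300 KO and 27.3 and 27.6 CPM in EP300 WT, with a log2 fold change of -0.05 (SE 0.09). Kat2b, the more abundant of the pair, stood at 71.5 and 68.2 against 64.4 and 62.0 CPM, with a log2 fold change of 0.14 (SE 0.07, adjusted p 0.120). The Kat2b groups did not overlap, whereas those of Kat2a did. Without EP300 KO replicate 2 Kat2b was called, with an adjusted p of 0.0375.

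The MYST acetyltransferases are the catalytic subunits of the NuA4, MOZ, HBO1 and MSL complexes. Kat5, which encodes TIP60 of NuA4, had the lowest log2 fold change of the 10 acetyltransferases, -0.32 (SE 0.14, adjusted p 0.0838), from 9.49 and 12.5 CPM in EP300 KO and 14.3 and 13.3 CPM in EP300 WT. Both EP300 KO libraries were below both EP300 WT libraries, replicate 1 by more than replicate 2. Kat5 was called under library-size scaling (adjusted p 0.0389), with a replicate block (0.0409) and without EP300 KO replicate 2 (0.00190), and 12.1% of its exon bases also belong to another gene, the overlap with Rnaseh2c among them. Kat6b, which encodes MORF, stood at 19.6 and 19.6 CPM against 16.7 and 16.9 CPM, a log2 fold change of 0.22 (SE 0.10, adjusted p 0.103). Its paralog Kat6a, which encodes MOZ, stood at 33.7 and 30.9 against 32.5 and 31.9 CPM, a log2 fold change of 0.00 (SE 0.08). The Kat6b groups did not overlap, while those of Kat6a did. Kat7, which encodes HBO1, had 25.6 and 24.0 CPM against 21.8 and 23.5 CPM, and Kat8, which encodes MOF, had 14.4 and 17.4 CPM against 13.7 and 14.6 CPM. Their log2 fold changes were 0.13 (SE 0.09) and 0.16 (SE 0.12). Hat1, which acetylates newly made histone H4 before it enters chromatin, stood at 7.87 and 8.74 CPM against 10.4 and 9.56 CPM, a log2 fold change of -0.26 (SE 0.14, adjusted p 0.162), with both EP300 KO libraries lower.

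Over the whole set, 9 of 44 genes were called (20.5%), beside 34.2% of all genes tested. Higher in EP300 KO were 7 genes (15.9%, beside 16.7%), namely Ep300, Sirt1, Sirt3, Sirt4, Sirt7, Brpf1 and Brpf3. Lower were 2 genes (4.55%, beside 17.5%), Hdac5 and Hdac7. The CPM ranges of the groups did not overlap for 28 genes (63.6%), against 66.4% of all genes tested. Called and changed at least 1.5-fold were Sirt4 and Sirt7 (4.55%), against 15.2% of all genes tested. The median log2 fold change was 0.03 in the set and -0.01 in all genes tested, and the median absolute value was 0.15 in the set and 0.25 in all genes.

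**Figure D2:**
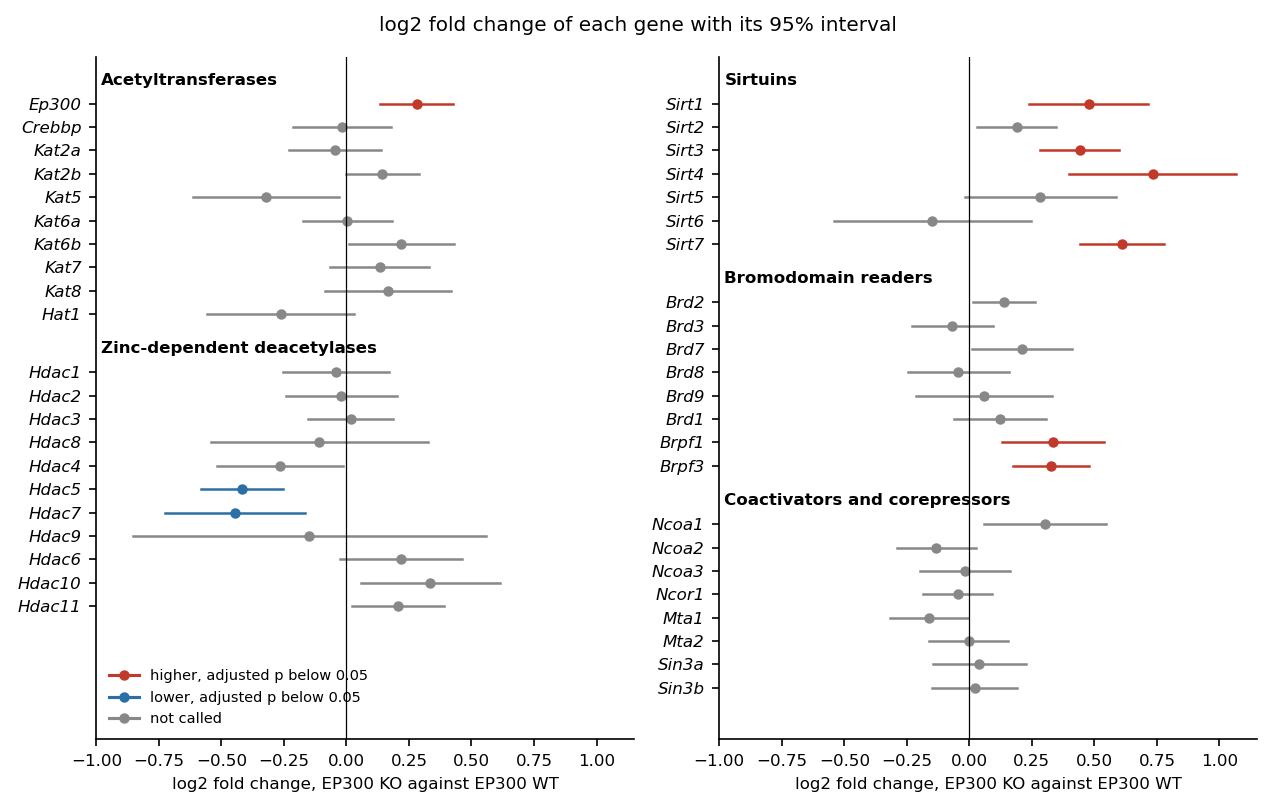
The log2 fold change of each gene in EP300 KO against EP300 WT, with its 95% interval from the edgeR fit, in 5 classes. Red marks the 7 genes called higher, blue the 2 called lower and grey the 35 not called.

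**Figure D3:**
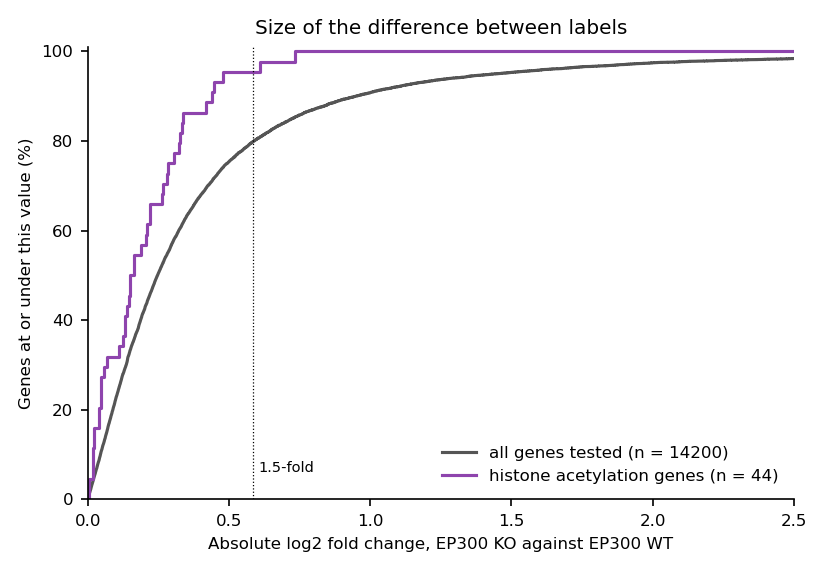
Cumulative share of genes (percent, vertical axis) up to a given absolute log2 fold change (horizontal axis), for the 44 genes and for all 14200 tested. The median is 0.15 for the 44 genes and 0.25 for all genes.

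Sirtuins held 4 of the 7 genes that rose. Sirt1, Sirt3, Sirt4 and Sirt7 rose, Sirt2, Sirt5 and Sirt6 did not pass the test, and none fell. The median log2 fold change of the 7 was 0.44, beside -0.01 for all genes tested. Their summed level per kilobase of exon was 43.5 and 42.7 CPM in EP300 KO and 33.6 and 31.7 CPM in EP300 WT. Of the 10 hepatocyte markers, the 6 that rose included Serpina1c at 1.03 (SE 0.08) and Tat at 0.90 (SE 0.05) on the log2 scale. The 2 that fell were Apoa1 at -0.67 (SE 0.05) and Alb at -0.11 (SE 0.03). The summed level of the 10 markers was 106081 and 108914 CPM in EP300 KO and 113624 and 112929 CPM in EP300 WT. Their part in the change of the sirtuins was not tested.

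Of the nuclear sirtuins, SIRT7 deacetylates histone H3 and acts on ribosomal RNA genes. Sirt7 (ENSMUSG00000025138, chr11:120618372-120625240, minus strand) had 50.8 and 51.7 CPM in EP300 KO and 35.0 and 32.1 CPM in EP300 WT. Both EP300 KO libraries were close to each other and clearly above both EP300 WT libraries. Its log2 fold change was 0.61 (SE 0.08, 95% interval 0.44 to 0.78, adjusted p 1.57e-05 in edgeR's quasi-likelihood test), a rise of 52.7%. Of its exon bases, 3.46% also belong to another gene, the neighbours including Mafg, which rose too (log2 fold change 0.38, adjusted p 0.000189). SIRT1 deacetylates histones and many transcription factors, including the coactivator PGC-1alpha. Sirt1 (ENSMUSG00000020063, chr10:63319005-63381704, minus strand) had 16.1 and 16.0 CPM against 11.3 and 11.8 CPM, again without overlap of the groups. Its log2 fold change was 0.48 (SE 0.11, adjusted p 0.00338), and the call was lost without EP300 WT replicate 1, with an adjusted p of 0.0634. Sirt6, which acts on histone H3 at telomeres and at glycolytic genes, had 4.98 and 5.92 CPM against 5.37 and 6.70 CPM, and its groups overlapped. Its log2 fold change was -0.15 (SE 0.18, 95% interval -0.54 to 0.24).

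The mitochondrial sirtuins carry acetyl and other acyl groups off metabolic enzymes and are not histone deacetylases in the main. SIRT3 is the main deacetylase of mitochondria. Sirt3 (ENSMUSG00000025486, chr7:140863666-140882309, minus strand) had 68.3 and 65.1 CPM in EP300 KO and 51.3 and 47.0 CPM in EP300 WT, with no overlap of the groups. Its log2 fold change was 0.44 (SE 0.07, adjusted p 0.000208). Another gene shares 12.7% of its exon bases, the neighbours Ric8a and Psmd13 having adjusted p of 0.694 and 0.184. SIRT4 acts on glutamate dehydrogenase and on lipid catabolism. Sirt4 (ENSMUSG00000029524, chr5:115478010-115484725, minus strand) had 11.4 and 11.5 CPM against 8.004 and 5.77 CPM. The EP300 KO libraries were alike, while EP300 WT replicate 2 was lower than replicate 1. Sirt4 had the highest log2 fold change of the 44 genes, 0.73 (SE 0.16, adjusted p 0.00176), and the call was lost without EP300 WT replicate 2, at 0.53 with an adjusted p of 0.0697. It was also lost with no filter on low counts (adjusted p 0.0666). Sirt5, a desuccinylase, had 8.91 and 9.31 CPM against 7.79 and 7.17 CPM, a log2 fold change of 0.28 (SE 0.14, adjusted p 0.142). Sirt2, the cytoplasmic tubulin deacetylase, had 56.5 and 51.8 CPM against 47.9 and 47.1 CPM, a log2 fold change of 0.19 (SE 0.07, adjusted p 0.0637). The groups of Sirt2 and of Sirt5 did not overlap, and Sirt2 was called with a replicate block (adjusted p 0.0461) and without EP300 KO replicate 2 (0.00707).

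The 2 genes that fell are class IIa deacetylases, which have little catalytic activity of their own, bind MEF2 factors and shuttle between nucleus and cytoplasm. All 4 class IIa genes had a negative log2 fold change, with a median of -0.34. The groups did not overlap for any of them, which was also so for 66.4% of all genes tested. Their summed level per kilobase of exon was 8.73 and 7.497 CPM in EP300 KO and 10.8 and 10.7 CPM in EP300 WT. Hdac5 (ENSMUSG00000008855, chr11:102194432-102230166, minus strand) had 52.3 and 45.9 CPM in EP300 KO and 67.1 and 64.1 CPM in EP300 WT. EP300 KO replicate 2 was the lowest library and both were below EP300 WT. The log2 fold change was -0.42 (SE 0.08, 95% interval -0.58 to -0.25, adjusted p 0.000554 in edgeR's quasi-likelihood test). Hdac7 (ENSMUSG00000022475, chr15:97792664-97844502, minus strand), which is prominent in endothelium and lymphocytes, had 12.8 and 9.89 CPM against 14.9 and 16.1 CPM. Its log2 fold change was -0.45 (SE 0.13, adjusted p 0.0153), with both EP300 KO libraries lower. Slc48a1, which shares 0.43% of the exon bases of Hdac7, fell by 0.52 (SE 0.07).

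The Hdac7 call was lost under 5 alternatives: without EP300 KO replicate 2 (log2 fold change -0.26, adjusted p 0.122), without EP300 WT replicate 1 (0.0900) or 2 (0.222), with DESeq2 (0.0802) and with no filter on low counts (0.155). Endothelial markers moved the same way: 6 of 8 fell and none rose, with Vwf at -1.23 (SE 0.11) and Lyve1 at -0.88 (SE 0.13) on the log2 scale. Over all genes tested, 17.5% fell and 16.7% rose. Of 8 stellate and fibroblast markers, 4 fell and none rose, Reln at -1.86 (SE 0.07) and Pdgfrb at -0.60 (SE 0.19) among them. Of 9 genes listed as lymphocyte markers, 2 had enough reads to be tested, Cd4 and Ptprc. Ptprc, which other leukocytes also express, fell by 0.44 (SE 0.10), and Cd4 was not called. The list therefore does not show whether lymphocytes changed. Macrophage markers were mixed, with 2 of 8 higher and 3 lower, from Marco at 2.59 (SE 0.17) to Cd5l at -0.69 (SE 0.06). Among cholangiocyte markers, 5 of 7 were tested, Cldn4 was higher (1.28, SE 0.18), and Sox9 (-0.78, SE 0.16) and Spp1 were lower. The part of these cells in the change of Hdac5, Hdac7 or any other of the 44 genes was not tested. Hdac4 had 12.3 and 11.3 CPM against 13.5 and 14.9 CPM, a log2 fold change of -0.26 (SE 0.12, adjusted p 0.100), and 22.4% of its exon bases also belong to other genes. Hdac9 was the least abundant of the 44 genes, at 1.27 and 1.32 CPM against 1.53 and 1.35 CPM, and its 95% interval of -0.85 to 0.56 on the log2 scale spans a fall of 44.7% to a rise of 47.1%.

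Promoter sequences are shown for the called genes whose 250 bases before the start site held no annotated exon, namely both class IIa genes that fell and Brpf1, so that the letters upstream of a gene that fell and of one that rose can be read side by side. They are from RefSeq on GRCm38.p6, and each is written on the strand of its gene. Capitals mark the GC box, GGGCGG or its reverse complement CCGCCC, which binds SP1-type factors. The Hdac5 window is chr11:102230173-102230422 (minus strand), the Hdac7 window chr15:97844503-97844752 (minus strand) and the Brpf1 window chr6:113306887-113307136 (plus strand).
Hdac5: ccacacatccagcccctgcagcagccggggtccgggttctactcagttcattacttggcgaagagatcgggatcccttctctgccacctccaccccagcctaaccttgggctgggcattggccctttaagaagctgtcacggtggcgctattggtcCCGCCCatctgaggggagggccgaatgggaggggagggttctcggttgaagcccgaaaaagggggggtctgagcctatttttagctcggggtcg
Hdac7: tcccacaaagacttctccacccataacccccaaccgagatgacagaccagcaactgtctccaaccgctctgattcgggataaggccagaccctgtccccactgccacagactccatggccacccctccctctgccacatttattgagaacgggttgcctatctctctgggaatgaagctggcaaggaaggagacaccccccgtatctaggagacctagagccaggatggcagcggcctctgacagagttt
Brpf1: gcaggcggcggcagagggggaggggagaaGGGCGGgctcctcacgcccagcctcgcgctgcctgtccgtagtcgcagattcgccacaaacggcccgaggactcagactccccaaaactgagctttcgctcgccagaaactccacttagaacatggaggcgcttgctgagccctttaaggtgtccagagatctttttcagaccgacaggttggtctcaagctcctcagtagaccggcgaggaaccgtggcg
Hdac5 and Brpf1 each hold 1 GC box and Hdac7 holds none. Of the 37 genes of the set with a RefSeq promoter, 26 (70.3%) hold a GC box in this window, against 32.9% of 27025 promoters of the same length. The median GC content was 62.4% in the set and 52% in all promoters. The CCAAT box (CCAAT or ATTGG) was found in 13 of the 37 (35.1%, against 34.5%), and the ETS core (CCGGAAG or CTTCCGG) in 8 (21.6%, against 7.05%). The E-box CACGTG was found in 3 (8.11%, against 6.05%), the NRF1 palindrome in 2 (5.41%, against 0.781%) and the cAMP response element TGACGTCA in none (against 1.62%). Such a match describes letters in this window and is not evidence of binding. Some windows, those of Ep300 and Crebbp among them, lay wholly in annotated exons. The RefSeq starts used for Sirt1 and Brd3 lay 42669 and 32264 bases from the GENCODE gene start. For the other promoters the start was picked by another rule, so the shares do not compare like with like.

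None of the other zinc-dependent deacetylases was called. The class I enzymes Hdac1 and Hdac2, the catalytic subunits of the NuRD, SIN3 and CoREST complexes, had log2 fold changes of -0.04 (SE 0.10) and -0.02 (SE 0.10). Hdac3, the enzyme of the NCoR complex, stood at 0.02 (SE 0.08), and the X-linked Hdac8 at -0.11 (SE 0.20). Summed per kilobase of exon, class I stood at 20.2 and 20.8 CPM in EP300 KO and 20.2 and 21.3 CPM in EP300 WT. Hdac6, the X-linked tubulin deacetylase of class IIb, stood at 0.22 (SE 0.11, adjusted p 0.161), and its partner in the class, the polyamine deacetylase Hdac10, at 0.34 (SE 0.13, adjusted p 0.0583). Hdac11, the only class IV enzyme, stood at 0.21 (SE 0.09, adjusted p 0.0773), with 17.9% of its exon bases shared with other genes. Both EP300 KO libraries were higher than both EP300 WT libraries for Hdac6, Hdac10 and Hdac11.

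**Figure D4:**
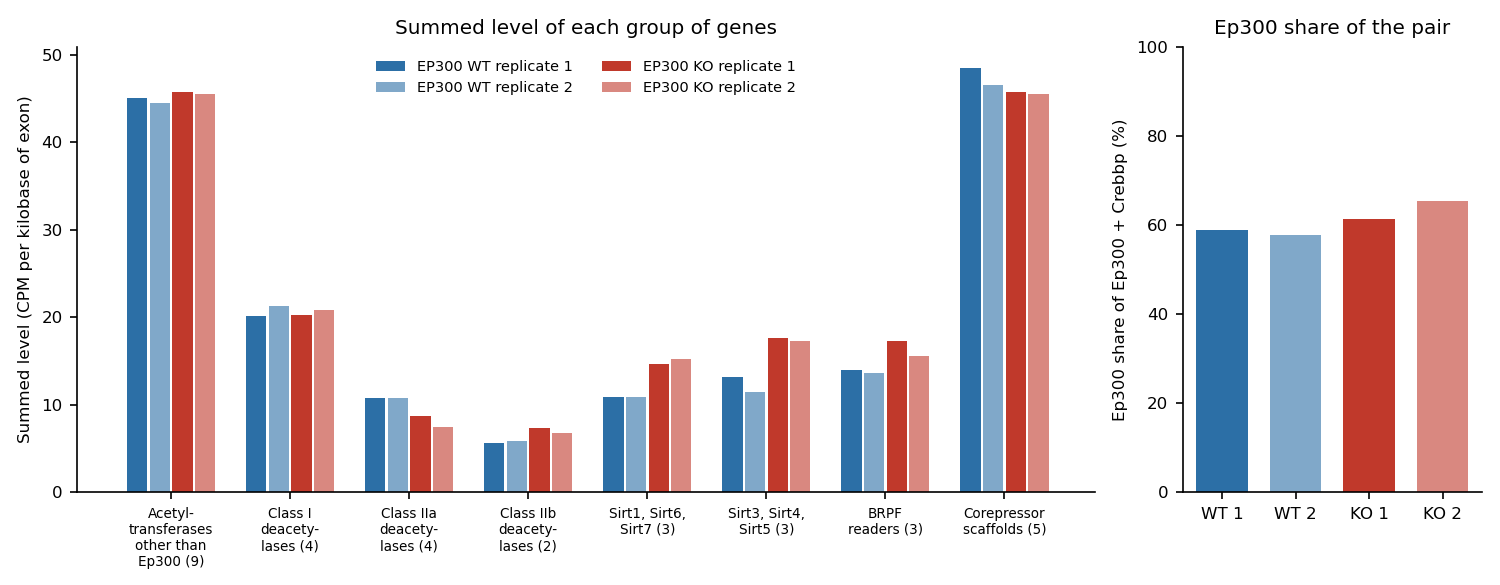
Left, summed level of groups of genes in each library (CPM per kilobase of exon), with the number of genes in brackets and 1 bar for each library; right, the share of Ep300 in the summed level of Ep300 and Crebbp. The EP300 KO bars stand below the EP300 WT bars for class IIa and the corepressor scaffolds. They stand above them for both sirtuin groups, class IIb, the BRPF readers and the acetyltransferases other than Ep300. Only for class I do the groups overlap. The Ep300 share is 61.3% and 65.5% in EP300 KO.

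Among the bromodomain readers, both genes that rose encode BRPF scaffolds, which bind the MYST enzymes MOZ, MORF and HBO1 and direct them to histone H3. Brpf3 (ENSMUSG00000063952, chr17:28801090-28839949, plus strand) had 59.0 and 56.4 CPM in EP300 KO and 46.1 and 45.9 CPM in EP300 WT, a log2 fold change of 0.33 (SE 0.07, adjusted p 0.00214). Brpf1 (ENSMUSG00000001632, chr6:113307137-113324860, plus strand) had 29.4 and 26.6 CPM against 23.3 and 21.05 CPM, a log2 fold change of 0.33 (SE 0.10, adjusted p 0.0124). Neither gene's groups overlapped. The Brpf3 call was lost when EP300 WT replicate 1 was left out (adjusted p 0.0527) or replicate 2 (0.0602), and so was that of Brpf1 (0.0561 and 0.194), which was also lost with DESeq2 (0.0660) and with no filter on low counts (0.0881). The third member, Brd1, was at 51.7 CPM in EP300 KO replicate 1 and at 43.4, 43.3 and 44.1 CPM in the other libraries, a log2 fold change of 0.12 (SE 0.09, adjusted p 0.303). Without EP300 KO replicate 2 it was called, at 0.25 with an adjusted p of 0.0115. The MYST genes whose products these scaffolds bind, Kat6a, Kat6b and Kat7, were not called.

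The BET reader Brd2, which recruits elongation factors to acetylated histones, was the most abundant of the 44 genes per kilobase of exon. It had 210 and 220 CPM in EP300 KO and 194 and 197 CPM in EP300 WT, with no overlap, and a log2 fold change of 0.14 (SE 0.06, adjusted p 0.0831). Its paralog Brd3 stood at -0.07 (SE 0.08). The SWI/SNF subunits Brd7 and Brd9 stood at 0.21 (SE 0.09, adjusted p 0.0964) and 0.06 (SE 0.13), and Brd8, a subunit of NuA4, at -0.04 (SE 0.10). Without EP300 KO replicate 1, Brd2 and Brd7 were called, with adjusted p of 0.00560 and 0.0441.

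No coactivator or corepressor scaffold was called. The p160 coactivators bridge nuclear receptors to EP300 and CBP. Ncoa1 stood at 20.2 and 16.7 CPM in EP300 KO and 15.2 and 14.7 CPM in EP300 WT, a log2 fold change of 0.30 (SE 0.11, adjusted p 0.0528), with EP300 KO replicate 1 the highest library and no overlap. It was called without EP300 KO replicate 2 (0.44, adjusted p 0.00152), with a replicate block (0.0343) and with DESeq2's size factors in edgeR (0.04998). Ncoa2 stood at -0.13 (SE 0.07) and Ncoa3 at -0.02 (SE 0.08). Among the scaffolds of deacetylase complexes, Mta1 of NuRD stood at -0.16 (SE 0.07, adjusted p 0.104) with no overlap of the groups, and Mta2 of NuRD at -0.00 (SE 0.07). Ncor1 stood at -0.05 (SE 0.07), Sin3a at 0.04 (SE 0.09) and Sin3b at 0.02 (SE 0.08).

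Of the 35 genes not called, 10 had an unadjusted p below 0.05. The 95% interval of 31 of them excluded a change of 1.5-fold in either direction, and that of Kat5, Hdac9, Hdac10 and Sirt5 did not. A p that misses the threshold does not show that the levels were equal. Of the 8 pairs of paralogs compared, 4 had count ratios that did not overlap between the groups: Ep300 over Crebbp, Kat2b over Kat2a, Kat6b over Kat6a and Hdac5 over Hdac4. With 2 against 2 libraries none could reach a two-sided exact permutation p below 0.333. Among single genes, the CPM ranges did not overlap for 66.4% of all genes tested. No such share was taken over other gene pairs, so 4 of 8 is not read as a trait of these paralogs. Kat2b over Kat2a was 2.60 and 2.65 in EP300 KO and 2.36 and 2.25 in EP300 WT, and Kat6b over Kat6a was 0.581 and 0.634 against 0.515 and 0.529. Hdac5 over Hdac4 was 4.24 and 4.08 against 4.98 and 4.31. In the ratios Hdac1 over Hdac2, Brpf3 over Brpf1, Sin3b over Sin3a and Hdac5 over Hdac7 the groups overlapped.

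Per kilobase of exon, the median level of the 44 genes over the EP300 WT libraries was 4.06 CPM. Over all 4 libraries, Brd2 was highest at a mean of 26.3. Mta1 followed at 16.4, Kat2b at 13.7, Mta2 at 12.7, Sirt2 at 10.1 and Sirt3 at 9.70. Mta2 and Kat2b overlapped in their library values, as did Sirt2 and Sirt3, so neither order holds beyond the spread. Ep300 was twentieth in the order at 4.66 and Crebbp thirty-second at 2.99, with every library of Ep300 above every library of Crebbp. At the low end stood Hdac4 at 0.821, Hdac8 at 0.818 and Hdac9 at 0.0933, of which only Hdac9 was apart from its neighbours in every library.

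Among partners, subunits and substrate supply of these enzymes, 148 further genes in 9 lists were examined, of which 142 were tested, 18 rose and 20 fell (26.8% called, beside 34.2% of all genes tested). Their median log2 fold change was -0.02. The EP300/CBP partners and inhibitors included 7 genes that fell and 1 that rose of 17 tested, with a median of -0.23. Over all genes tested, 17.5% fell and 16.7% rose. Crtc3, a coactivator of CREB that recruits these enzymes, fell by 0.51 (SE 0.12), Ppargc1a, the coactivator PGC-1alpha, fell by 0.48 (SE 0.12) and Cited2, which competes with HIF1A for their CH1 domain, fell by 0.45 (SE 0.10) on the log2 scale. Trp53, Anp32b, Creb1 and Prmt1 fell as well, and Crtc2, a relative of Crtc3, rose by 0.33 (SE 0.08). Without EP300 WT replicate 1 the calls of Crtc3, Ppargc1a and Cited2 were lost, with adjusted p of 0.111, 0.0838 and 0.103, and without EP300 WT replicate 2 that of Ppargc1a, with 0.0813.

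Genes that supply acetyl-CoA or turn over NAD went the other way, with 5 of 13 higher (beside 16.7% of all genes tested), none lower and a median of 0.23. Acss2, which makes acetyl-CoA from acetate, had 145 and 136 CPM in EP300 KO and 94.6 and 93.6 CPM in EP300 WT, a log2 fold change of 0.58 (SE 0.06). Acly, which makes it from citrate, had 352 and 326 CPM against 246 and 243 CPM, a log2 fold change of 0.47 (SE 0.06). Nnmt, which methylates nicotinamide, had 83.1 and 86.7 CPM against 59.9 and 59.0 CPM, a log2 fold change of 0.51 (SE 0.07). All 3 genes had both EP300 KO libraries above both EP300 WT libraries and were called under every alternative. Also higher were Slc25a1, the mitochondrial citrate carrier, and Qprt, of NAD synthesis. Nampt, the rate-limiting enzyme of NAD salvage on which sirtuins draw, stood at 0.11 (SE 0.06, adjusted p 0.188).

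**Figure D5:**
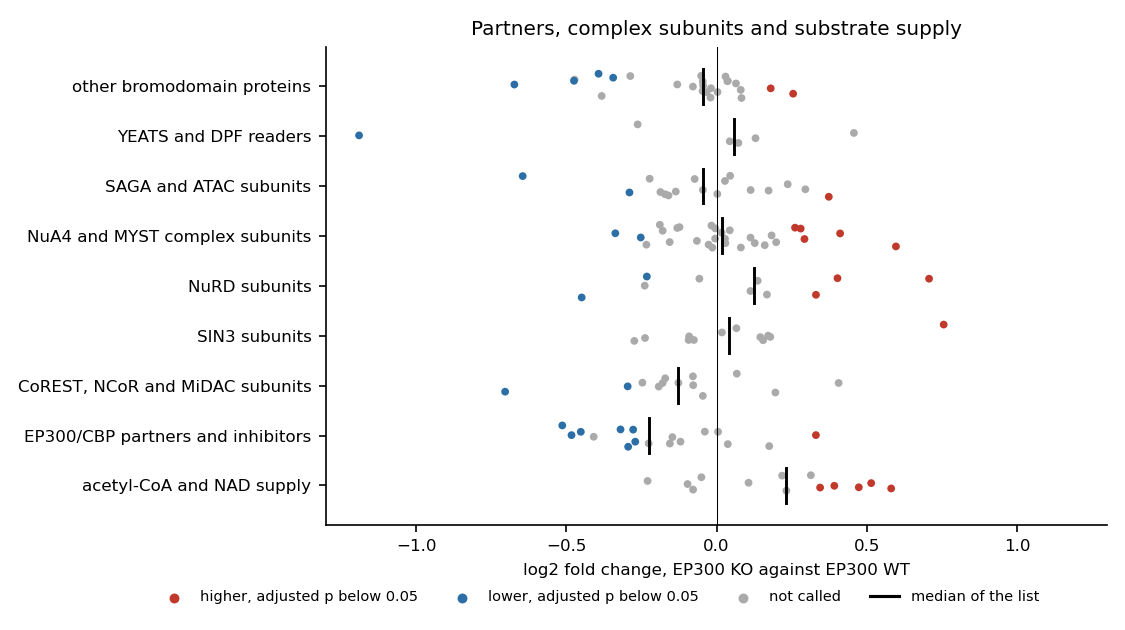
The log2 fold change in EP300 KO against EP300 WT of the 142 tested genes in 9 lists, with 1 point for each gene and a bar at the median of each list. The medians run from -0.23 for EP300/CBP partners and inhibitors to 0.23 for acetyl-CoA and NAD supply.

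Subunits of the deacetylase complexes moved in both directions, as did all genes tested, of which 16.7% rose and 17.5% fell. The share called was 50% in NuRD, 8.33% in SIN3 and 15.4% in CoREST, NCoR and MiDAC, beside 34.2% of all genes tested. In NuRD 3 of 10 rose and 2 fell: Chd3, a remodelling ATPase, rose by 0.40 (SE 0.06), Rbbp7, a histone chaperone, fell by 0.45 (SE 0.07), and Mbd2 rose while Mbd3 fell. The rise of Cdk2ap1, 0.71 (SE 0.20), rested on EP300 KO replicate 2, since the counts were 232 and 441 in EP300 KO and 225 and 229 in EP300 WT, and without it the value was 0.18 with an adjusted p of 0.349, while without EP300 KO replicate 1 it was 1.10. Its call was also lost without EP300 WT replicate 1 (0.166) and without EP300 WT replicate 2 (0.207). Of 12 SIN3 subunits, 1 rose, Sap30l at 0.76 (SE 0.18), from 299 and 515 counts in EP300 KO and 251 and 280 in EP300 WT. Replicate 2 of EP300 KO was the highest library, and without it the value was 0.32 with an adjusted p of 0.0381. The call was lost when EP300 WT replicate 1 was left out (adjusted p 0.121) or replicate 2 (0.107). Of 13 CoREST, NCoR and MiDAC subunits none rose and 2 fell, among them Tbl1xr1, an exchange factor of the NCoR complex, by 0.70 (SE 0.09).

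Subunits of the acetyltransferase complexes also moved both ways. The share called was 24.1% of NuA4 and MYST subunits and 17.6% of SAGA and ATAC subunits. It was 16.7% of YEATS and DPF readers and 24% of other bromodomain proteins, beside 34.2% of all genes tested. Of 29 NuA4 and MYST subunits, 5 rose and 2 fell, and Jade1, a scaffold of HBO1, rose by 0.60 (SE 0.09). Of 17 SAGA and ATAC subunits, 1 rose and 2 fell. Tada2b, an adaptor of SAGA, rose by 0.37 (SE 0.10), a call lost when EP300 WT replicate 1 was left out (adjusted p 0.0516) or replicate 2 (0.125). Further readers included Mllt3, a YEATS protein that binds acetylated and crotonylated histone H3, at 3.65 and 4.71 CPM in EP300 KO and 9.74 and 9.35 CPM in EP300 WT. It fell by 1.19 (SE 0.17) on the log2 scale, the only one of 6 YEATS and DPF readers to be called. Of 25 other bromodomain proteins 2 rose and 4 fell, Trim24, a reader and ubiquitin ligase, by 0.47 (SE 0.07), Zmynd8 by 0.39 (SE 0.08) and Atad2 by 0.67 (SE 0.17). Atad2 is known to follow the cell cycle. Of 10 proliferation markers 9 fell, beside 17.5% of all genes tested, Bub1 by 2.25 (SE 0.51) and Mki67 by 1.91 (SE 0.16). The part of proliferating cells in these changes was not tested. Without EP300 WT replicate 1 the calls of Atad2 and Zmynd8 were lost, with adjusted p of 0.168 and 0.0671, and the value of Atad2 was -0.41.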

How the data were processed

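Per the labels' protocols, perfused liver was sorted by FACS and libraries were made from total RNA with a TruSeq RNA kit. The authors deposited raw read counts per gene, and STAR, HTSeq and DESeq2 are listed without versions, beside the build mm10, per the submitters' processing notes. Annotation and strand setting are not given in the sources used here. Of the table's columns, 4 match no sample and were not used. The 6 samples of the diet experiment were not analysed here.

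Identifiers were matched to GENCODE M21 (55144 of 55385). Counts were tested with edgeR 4.0.16 in R 4.3.3 by its quasi-likelihood F test. Library sizes were scaled by TMM, low genes were removed by filterByExpr at min.count 10, and the design held the group alone, which left 2 residual degrees of freedom. P-values were adjusted by Benjamini-Hochberg over 14200 genes, with a threshold of 0.05. The fitted biological coefficient of variation was 5.47%. CPM uses TMM-scaled library sizes, and CPM per kilobase divides by the union of a gene's exons. Each SE is the absolute log2 fold change over the square root of the test's F, from 2 libraries a group. It therefore draws on a dispersion moderated across genes. Counts were also simulated from these 14200 genes at the fitted trended dispersion, of which 13957 passed the filter. At each fold size, 50 genes above a minimum mean count were changed. Of genes changed 1.2-fold 28% were recovered, and of those changed 1.5-fold 74%, with 7 false calls. In the data 34.2% of genes were called, a far larger share than was changed in the simulation, so its rates may not hold for the real test.

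Libraries of a group differed beyond sampling noise (chi-square per degree of freedom 5.5 in EP300 KO and 2.6 in EP300 WT), so none was counted as a duplicate. Members, lists and tests were chosen with earlier results of these data known. The text describes every called gene, every acetyltransferase and each paralog family with a called gene by library, and names from each list up to 3 of the largest passing genes (2 for cell markers); not all of these are printed, and some list genes are not reported here. Other genes are named where a count of few is given. RefSeq promoter windows cover the 250 bases before the start. For the 44 genes the start nearest that of GENCODE was used, for other genes the first listed. The alternatives were other scalings, DESeq2 1.42.0, limma-voom (limma 3.58.1), no filter, a minimum count of 50, the 20 most abundant genes left out, a replicate block, each library left out, and the longest transcript as gene length.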

Additional observations from a re-analysis of the deposited data

How the results depend on the processing

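All 9 called genes kept their direction under the 13 alternatives of the test, and Hdac5, Sirt3 and Sirt7 were called in each of them. Among the 44 genes, 2 were called lower in the reported analysis, against 6 under scaling by library size only, 1 with DESeq2 and 1 with no filter. Scaling by library size moved the median of all genes to -0.07 and called 13 of the 44, adding Hdac4, Kat5, Mta1 and Ncoa2. Over all genes, 4851 calls became 2703 with no filter (1416 higher, 1287 lower), and 2485 lower calls became 1614 with DESeq2. The 38 calls in the partner and subunit lists became 23 with DESeq2 and 15 with no filter. The median level of the 44 genes in the EP300 WT libraries was 5.98 rather than 4.06 CPM per kilobase with the longest transcript as gene length. The cause of these shifts was not tested.

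Leaving out 1 library gave 2306 to 5154 calls over all genes (1160 to 2574 higher, 1146 to 2580 lower), 4 to 14 among the 44 (3 to 12 higher, 1 to 2 lower) and 12 to 46 in the lists. The fewest calls among the 44, 4 and 5, came without EP300 WT replicate 2 and without EP300 WT replicate 1, and the most, 14, without EP300 KO replicate 2. The log2 fold change of Ep300 ran from 0.24 to 0.34 and that of Crebbp from -0.16 to 0.13.

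Signs turned only for Crebbp and for other genes near 0, none of them called. Kat6a became -0.063 with library size, -0.014 with upper-quartile scaling and -0.0029 with a minimum count of 50. Hdac3 became -0.050 and -0.00070 with the first and second of these, and Brd9 -0.0080, Sin3a -0.027 and Sin3b -0.046 with library size. Mta2 became 0.0020 with DESeq2's size factors in edgeR, 0.0020 in DESeq2, 0.0093 with no filter and 0.00046 without the 20 most abundant genes. With 1 library left out, the ranges were -0.082 to 0.0061 for Kat2a, -0.048 to 0.069 for Kat6a, -0.16 to 0.10 for Hdac1, -0.080 to 0.059 for Hdac2, -0.014 to 0.064 for Hdac3, -0.29 to 0.033 for Sirt6, -0.098 to 0.022 for Brd8, -0.0031 to 0.13 for Brd9, -0.076 to 0.056 for Ncoa3, -0.091 to 0.0097 for Ncor1, -0.046 to 0.060 for Mta2, -0.00060 to 0.095 for Sin3a and -0.032 to 0.087 for Sin3b.

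Deviations of same-numbered libraries from their group means had a correlation of -0.00075. With 2 libraries a group this single value does not show whether replicate numbers pair the libraries, and the labels leave it unsaid. With a replicate block, 36.5% of all genes and 13 of the 44 were called, the reported 9 with Hdac10, Kat5, Ncoa1 and Sirt2. Depth limits Hdac9 most, at 22 to 29 reads a library.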
